A study of Homo sapiens with 8 samples.

Results

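A group of 10 genes encoding secreted factors that act on blood vessels were followed from normoxia to hypoxia in SQ20B cells: VEGFA, VEGFB, VEGFC, PGF, PDGFA, PDGFB, ADM, EDN1, ANGPTL4 and STC2. They were picked by name, with earlier results of these data known. Each of the 20 RefSeq transcripts listed under them was used, out of 24812 transcripts and 14528 named genes in the expression table. SQ20B is an established human line of head and neck squamous cell carcinoma, grown alone in serum-containing medium. Of the samples, 4 were labelled normoxia and 4 were kept in 0.5% O2 for 16 h, and poly(A)-selected RNA was sequenced. Both arms were the same unmodified line. By label they differed in oxygen, and the normoxia label gives neither an oxygen level nor a time. The values are FPKM, a level scaled by transcript length and by the number of mapped reads, and the table holds 1 value per transcript and condition, pooled by the authors over the 4 replicates. These pooled values carry no spread between replicates, and the authors' own test statistics in the table were not used, so that every difference below is a description with no test. A difference is called here when it reached 1.5-fold on the scale log2((hypoxia FPKM + 0.1)/(normoxia FPKM + 0.1)), with the transcripts of a gene summed and a mean FPKM over both conditions of at least 0.5. In a bulk measurement of this kind, a smaller number of expressing cells and less RNA per cell cannot be told apart.

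Low oxygen stabilizes the HIF transcription factors, which bind a short DNA core (ACGTG or GCGTG) and raise the transcription of genes that bring in blood supply. VEGFA is the main growth and permeability factor for endothelial cells and acts through the receptor KDR, whereas PGF and VEGFB bind FLT1, and VEGFC acts mainly on lymphatic endothelium through FLT4. PDGFA and PDGFB recruit fibroblasts and pericytes, ADM dilates and stabilizes vessels, EDN1 constricts them, ANGPTL4 inhibits lipoprotein lipase, and STC2 is a glycoprotein that inhibits the protease PAPPA. A carcinoma cell is a source of these factors, and the receptors are mostly found on other cells of a tumor.

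As a check of the labels, all 7 genes of a hypoxia reference list (CA9, NDRG1, PDK1, SLC2A1, BNIP3, EGLN3 and ANKRD37) were higher in hypoxia, with a median log2 change of 3.85. All 7 were past 1.5-fold, beside 9.95% of all genes above the FPKM limit. The list was chosen with earlier results of these data known, so this check could hardly fail. Of 6 squamous markers, KRT14 had no value, and the summed FPKM of the other 5 was 513 in normoxia and 560 in hypoxia. KRT5, TP63 and KRT17 were at 398, 42.8 and 50.5 FPKM in normoxia and at 442, 44.6 and 56.2 FPKM in hypoxia. SFN was at 16.9 and 14.6 FPKM, and KRT6A, at 5.10 and 3.26 FPKM, was lower past 1.5-fold. The general epithelial markers EPCAM and CDH1 were at 317 and 61.1 FPKM in normoxia and at 233 and 82.6 FPKM in hypoxia. Of 6 endothelial markers, CDH5 alone had a value. It was at 4.78 FPKM in normoxia and 2.83 FPKM in hypoxia, lower past 1.5-fold. PECAM1, VWF, TEK, TIE1 and KDR had no transcript paired with them. Of the fibroblast and pericyte list, COL3A1 alone had a value, at most 0.107 FPKM. Of the leukocyte list, CD68 reached 2.86 FPKM, CD14 0.132 FPKM and PTPRC had no value. Over the whole table, FPKM summed to 536005 in normoxia and 458431 in hypoxia.

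All 10 genes passed the FPKM limit, although ANGPTL4 did so only through its hypoxic value. In hypoxia 5 were higher past 1.5-fold (ANGPTL4, ADM, PGF, STC2 and VEGFA) and 1 was lower (EDN1), while 4 did not reach that fold (VEGFB, VEGFC, PDGFA and PDGFB). Over all 12106 genes above that limit, 9.95% were higher by that criterion and 11.2% were lower. Of all genes called, 46.9% were higher with the values as deposited, 57.8% after quantile normalisation, 58.6% after median centring and 78.8% after scaling to equal sums, which moved the median log2 change of all genes from -0.07 to 0.15. The median log2 change of the 10 genes was 0.70, against -0.07 for all genes. Since the 10 genes were chosen with earlier results known, these contrasts with all genes are no test of enrichment. The summed FPKM of the 10 genes went from 98.0 in normoxia to 172 in hypoxia, and VEGFA, ADM and STC2 carried most of it in both conditions. The direction of each gene was the same under 3 other scalings of the FPKM columns. With the most abundant transcript of each gene alone it could not differ, since all listed transcripts of a gene moved in 1 direction. The other 5 alternative settings (pseudocount, FPKM limit and threshold) cannot turn a direction.

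**Figure D1:**
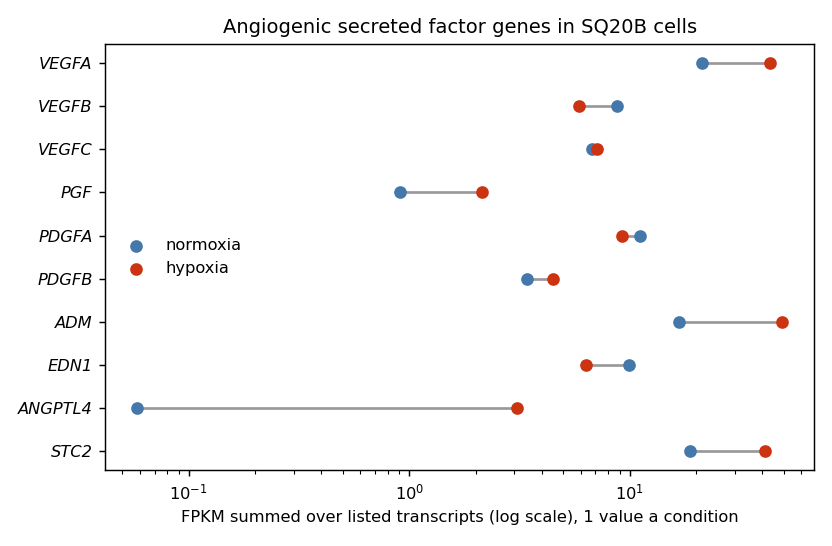
FPKM of the 10 genes, summed over their listed transcripts, on a log axis, with 1 pooled value for normoxia (blue) and 1 for hypoxia (red) per gene. VEGFA, ADM and STC2 lie highest in both conditions, and ANGPTL4 spans the longest distance, from 0.0585 to 3.09 FPKM.

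The genes lie on separate chromosomes or far apart, and all are annotated as protein coding. In hg19, VEGFB lies at chr11:64002056-64006736 on the forward strand, ADM at chr11:10326642-10328923 on the forward strand and ANGPTL4 at chr19:8429011-8439259 on the forward strand. EDN1 lies at chr6:12290529-12297427 on the forward strand, and VEGFA lies at chr6:43737946-43754223, also on the forward strand. On the reverse strand lie VEGFC (chr4:177604689-177713899), PGF (chr14:75408533-75422467), PDGFA (chr7:536897-559481), PDGFB (chr22:39619685-39640957) and STC2 (chr5:172741726-172756506).

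The promoters of the genes were searched for the HIF core. RefSeq promoter windows of GRCh38.p14, which run from 250 bases before a transcription start to 50 bases after it, were matched by symbol for 8 of the genes, VEGFA and PDGFB being without an entry, and made up 14 windows. ACGTG or GCGTG on either strand was found in 12 of the 14 windows and in at least 1 window of each of the 8 genes. The 2 windows of PGF overlap and hold the same match, before 1 start and past the other, so it is counted in both. An ACGTG or GCGTG match occurs in 48.5% of all 35116 promoter windows, and in 60.6% of the windows of genes above the FPKM limit. Counted per gene, 70.0% of the 9671 genes above the limit that had a window held a match. The genes that were higher (ADM, ANGPTL4, STC2 and PGF) and those that were lower or level (VEGFB, EDN1, VEGFC and PDGFA) all held one. So common a match could hardly separate 8 genes, and whether HIF acted on any of them was not tested. None of the matches lay within CACGTG, the E-box core of other factors. A stretch around the match is shown for the 4 genes that were higher and for VEGFB and EDN1, which were lower. Each is written 5′ to 3′ in the direction of the gene, with the matches in capitals, and CACGC and CACGT are GCGTG and ACGTG read from the other strand.
ADM, chr11:10304962-10304986, forward strand, match starting 101 bases before the start: gcaggagcgcGCGTGgctgaggaaa
ANGPTL4, chr19:8363911-8363935, forward strand, 234 bases before the start: aaagaagagtCACGTctcccacggt
STC2, chr5:173328626-173328655, reverse strand, the first match 235 bases before the start: catacaCACGCACGCaaacGCGTGgccgcc
PGF, chr14:74955745-74955769, reverse strand, 162 bases before 1 of its 2 annotated starts: gagcccctcgCACGCactgcgggct
VEGFB, chr11:64234513-64234537, forward strand, 61 bases before the start: ggtggggagcGCGTGtctgggtcac
EDN1, chr6:12290228-12290252, forward strand, 123 bases before 1 of its 3 annotated starts: tctccggctgCACGTtgcctgttgg
STC2 had 3 matches within this stretch, 2 of them overlapping. The stretches of ANGPTL4 and EDN1 hold the ACGTG form and the others the GCGTG form. Another EDN1 window, not shown, held 2 further ACGTG matches and 1 GCGTG match. A match of 5 letters is a description of the sequence and does not show that a factor bound there.

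Among the VEGF ligands, VEGFA and PGF were higher in hypoxia, VEGFC was nearly level and VEGFB was lower. VEGFA stood at 21.3 FPKM in normoxia and 43.2 FPKM in hypoxia, a log2 change of 1.02, and ranked 373 of 12106 genes counted from the largest increase. Its rank was 209 with a pseudocount of 1 and 439 with none. PGF, the placental growth factor, stood at 0.905 FPKM in normoxia and 2.14 FPKM in hypoxia, a log2 change of 1.16. Its level remained low, and a larger pseudocount of 1 gave a log2 change of 0.72. VEGFC, the lymphatic factor, was at 6.75 and 7.10 FPKM, a log2 change of 0.07. VEGFB was at 8.81 FPKM in normoxia and 5.87 FPKM in hypoxia, a log2 change of -0.58. This was 1.49-fold lower with 0.1 added and just past the threshold with nothing added, so that its call depended on the pseudocount.

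The makeup of the VEGF ligand transcripts therefore differed between the conditions. The summed FPKM of the 4 ligand genes went from 37.8 to 58.3, and the share of VEGFA in it from 56.4% to 74.1%. The share of VEGFB went from 23.3% to 10.1% and that of VEGFC from 17.9% to 12.2%. PGF made up 2.40% in normoxia and 3.67% in hypoxia. The level of VEGFA was 2.42 times that of VEGFB in normoxia and 7.36 times in hypoxia. Against PGF, the ratio of levels was 23.5 in normoxia and 20.2 in hypoxia. VEGFA and PGF thus had like folds at very different levels.

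**Figure D2:**
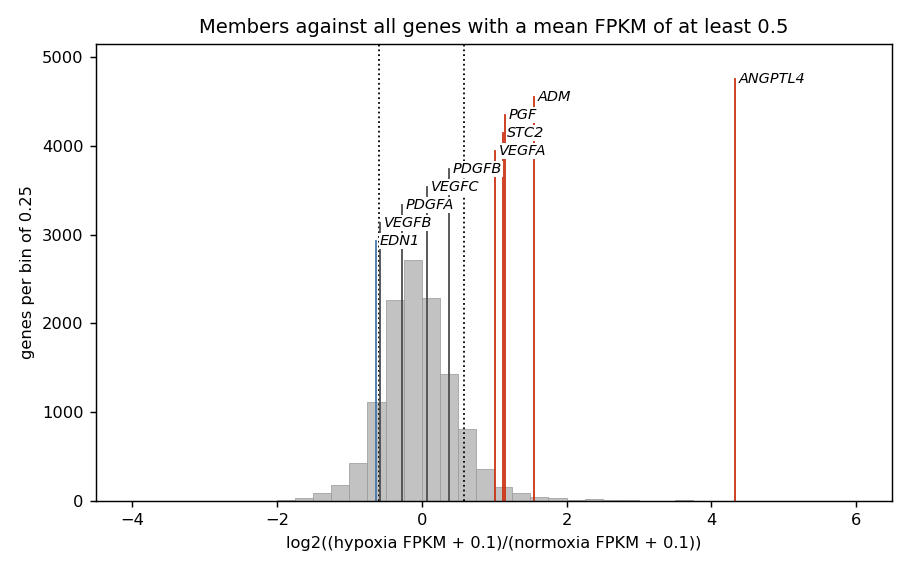
Histogram of the log2 change of 12106 genes (grey; x axis, log2 change from normoxia to hypoxia; y axis, number of genes per bin), with a vertical line for each of the 10 genes and dotted lines at 1.5-fold in either direction. The lines of VEGFA, STC2, PGF and ADM lie between 1.02 and 1.55 and that of ANGPTL4 at 4.33, and their heights carry no value.

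VEGFA pre-mRNA is spliced into forms that differ in the stretches binding heparin and the extracellular matrix, so that some forms diffuse freely and others stay near the cell. The table listed 6 VEGFA transcripts, out of 20 in the RefSeq annotation of GRCh38.p14, and all 6 were higher in hypoxia. Which protein form each accession encodes was not analysed here. NM_001287044 was the most abundant in both conditions, with 11.3 FPKM in normoxia and 20.0 FPKM in hypoxia, a log2 change of 0.82. NM_001171628 followed with 7.63 and 16.6 FPKM, a log2 change of 1.11. NM_001171624 went from 1.74 to 4.99 FPKM, which at 1.47 was the largest log2 change among the 6 transcripts. The order of the 4 most abundant transcripts was the same in both conditions.

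The shares of the VEGFA transcripts shifted by a few percentage points. NM_001287044 made up 53.0% of the summed VEGFA FPKM in normoxia and 46.3% in hypoxia, a difference of -6.71 points. NM_001171628 went from 35.8% to 38.5%, and NM_001171624 from 8.16% to 11.6%. NM_001171625 went from 0.377 to 0.947 FPKM and held 1.77% and 2.19%. NM_001025366 and NM_001204385 were below the FPKM limit, at 0.123 and 0.134 FPKM in normoxia and at 0.330 and 0.312 FPKM in hypoxia, and each made up less than 1% of the sum. Of the increase in summed FPKM, 39.8% came from NM_001287044, 41.0% from NM_001171628 and 14.8% from NM_001171624. The largest shift in share was above that of 74.4% of the 5133 genes with more than 1 listed transcript, whose median largest shift was 3.10 points. Cufflinks divides reads among overlapping transcripts, and the read counts behind each share were not analysed here, so no interval is given.

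**Figure D3:**
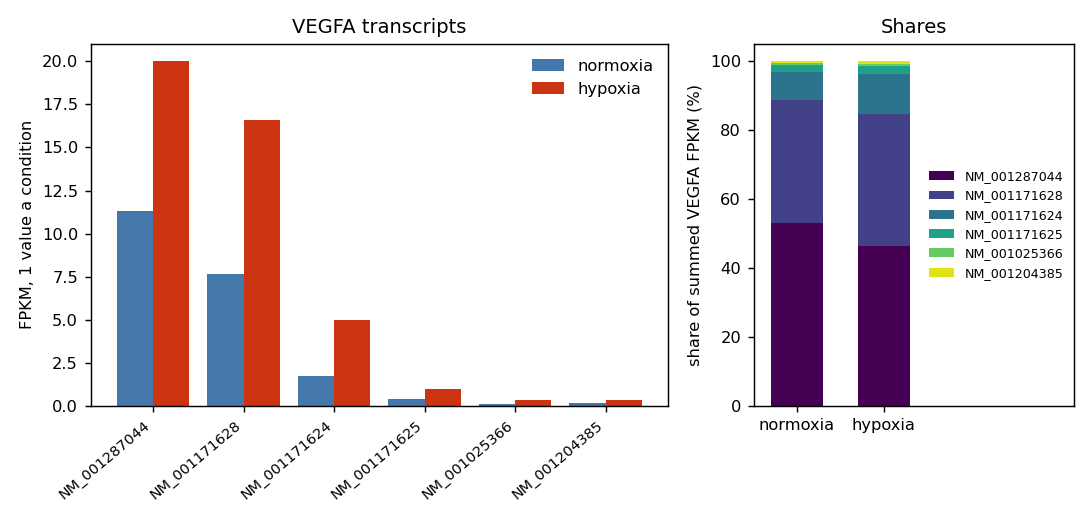
Left, FPKM of the 6 VEGFA transcripts in normoxia (blue) and hypoxia (red), 1 pooled value per bar. Right, the share of each transcript in the summed VEGFA FPKM of a condition, in percent. All red bars exceed the blue ones, while the share of NM_001287044 goes from 53.0% to 46.3%.

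VEGFB, by contrast, had the largest shift between transcripts among the 6 genes with more than 1 listed. Its 2 transcripts are the products of alternative splicing of 1 gene, and both were lower in hypoxia by unequal amounts. NM_003377 was at 2.69 FPKM in normoxia and 1.09 FPKM in hypoxia, a log2 change of -1.23. NM_001243733 was at 6.12 and 4.77 FPKM, a log2 change of -0.35. The share of NM_001243733 went from 69.4% to 81.4%, a shift of 11.9 points that exceeded the largest shift of 89.9% of the genes with more than 1 transcript. The less abundant transcript thus carried 54.3% of the decrease of VEGFB. VEGFB was singled out as the largest shift of the 6 genes. The genes it was ranked against were not matched for level or number of transcripts, so the rank is no test.

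In the other genes with 2 listed transcripts, both moved in 1 direction. For PGF, NM_001207012 went from 0.650 to 1.45 FPKM and NM_002632 from 0.255 to 0.687 FPKM, and the first made up 71.8% and 67.9% of the sum. For PDGFB, NM_033016 made up 88.1% in normoxia and 83.3% in hypoxia. The shares of NM_033023 of PDGFA, 50.9% and 50.7%, differed least. NM_001955 of EDN1 made up 60.2% and 62.3%. ADM, VEGFC, ANGPTL4 and STC2 were each listed with a single transcript. In the RefSeq annotation of GRCh38.p14, ANGPTL4 has 3 transcripts, PGF 3, PDGFA 8 and EDN1 5, so their sums and shares cover part of these. VEGFB, PDGFB, ADM, VEGFC and STC2 were listed with all of theirs.

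**Figure D4:**
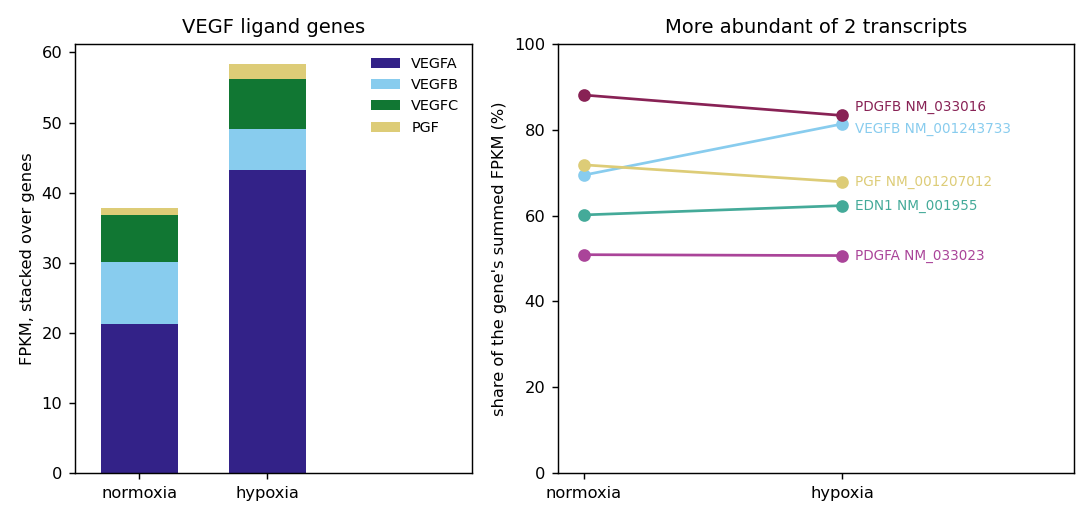
Left, FPKM of the 4 VEGF ligand genes stacked for normoxia and hypoxia. Right, share of the more abundant transcript, in percent of the summed FPKM of its gene, for the 5 genes with 2 listed transcripts. VEGFA fills 56.4% of the left stack in normoxia and 74.1% in hypoxia, and VEGFB has the steepest line on the right, from 69.4% to 81.4%.

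Counted by transcript, 17 of the 20 passed the FPKM limit, and of these 9 were higher past 1.5-fold and 2 were lower. The background was 10.5% higher and 14.3% lower among 18190 transcripts. The 9 were 4 of VEGFA, 1 each of PGF, ADM, ANGPTL4 and STC2, and NM_002608 of PDGFB, which went from 0.408 to 0.750 FPKM. Transcripts of 1 gene share overlapping reads, so the 4 of VEGFA are not independent of each other. Of the 9, 3 passed the limit only through their hypoxic value (NM_001171625 of VEGFA, NM_002608 of PDGFB and NM_139314 of ANGPTL4), and the limit favours higher calls for such transcripts. With a pseudocount of 1, 6 transcripts were higher, and NM_001171625, NM_002608 and NM_001207012 of PGF were no longer among them. The 2 that were lower were NM_003377 of VEGFB and NM_001168319 of EDN1.

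The PDGF ligands differed little between the conditions. PDGFA, the ligand of PDGFRA, was at 11.1 FPKM in normoxia and 9.19 FPKM in hypoxia, a log2 change of -0.27. PDGFB, which also binds PDGFRB and attracts pericytes, was at 3.43 and 4.50 FPKM, a log2 change of 0.38. Neither reached 1.5-fold, and their summed FPKM was 14.6 in normoxia and 13.7 in hypoxia. The level of PDGFA was 3.25 times that of PDGFB in normoxia and 2.04 times in hypoxia. With the columns scaled to equal sums, PDGFB passed the threshold, at a log2 change of 0.60.

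The vasoactive peptides ADM and EDN1 moved in opposite directions. ADM encodes adrenomedullin, which relaxes vessels, and stood at 16.8 FPKM in normoxia and 49.2 FPKM in hypoxia, a log2 change of 1.55. It went from the third highest of the 10 genes in normoxia to the highest in hypoxia, and from rank 4407 to rank 1684 by level among 12106 genes. EDN1 encodes endothelin, a constrictor, and stood at 9.94 FPKM in normoxia and 6.37 FPKM in hypoxia, a log2 change of -0.63. The ratio of ADM to EDN1 levels was 1.69 in normoxia and 7.72 in hypoxia. The call of EDN1 was close to the threshold at 1.55-fold. It was lost with 1 added, after median centring, after scaling to equal sums, and when its most abundant transcript alone was used, with log2 changes between -0.64 and -0.41 over all settings.

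ANGPTL4 had the largest relative change of the 10 genes. It was listed at 0.0585 FPKM in normoxia and 3.09 FPKM in hypoxia, a log2 change of 4.33 with rank 3 among 12106 genes counted from the largest increase. Both the size and the rank depend on the added constant because the normoxic value is near 0. The log2 change was 1.95 with rank 40 when 1 was added, and 5.72 with rank 1 when nothing was added. In absolute terms its gain was 3.03 FPKM, against 32.4 FPKM for ADM and 22.4 FPKM for STC2. ANGPTL4 remained the second lowest of the 10 genes in hypoxia, above PGF.

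STC2 stood at 18.9 FPKM in normoxia and 41.2 FPKM in hypoxia, a log2 change of 1.12. Its level relative to VEGFA was 0.886 in normoxia and 0.954 in hypoxia, so that these genes kept nearly the same ratio. STC1, its paralog, was lower in level but had a larger relative change, from 2.09 to 11.1 FPKM, a log2 change of 2.35. STC2 thus exceeded STC1 9.03-fold in normoxia and 3.72-fold in hypoxia.

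Lists of other genes of these pathways, also chosen with earlier results known, held 70 genes. Of these, 32 were above the FPKM limit, 9 were below it and 29 had no value. Of the 32 genes, 8 were higher past 1.5-fold and 2 were lower, beside 9.95% and 11.2% among all genes, and their median log2 change was 0.03. The counts by list below rest on few genes and are no test against the shares of all genes. Of the 16 other ligands of the same families, 3 passed the limit. STC1 was the one called, and PDGFC was at 28.5 and 26.1 FPKM, above the level of either member of its family in both conditions. ANGPT1, a ligand of TEK, was at 0.874 and 1.31 FPKM. EDN2, a second endothelin, was below the limit, at 0.0426 FPKM in normoxia and 0.670 FPKM in hypoxia.

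Of 16 receptors and co-receptors, 4 passed the limit and 0 were called in either direction, beside 9.95% higher and 11.2% lower among all genes. NRP1, a VEGFA co-receptor, was at 16.2 FPKM in normoxia and 18.1 FPKM in hypoxia, and NRP2 was at 2.96 and 2.20 FPKM. RAMP1, a partner of the calcitonin receptor-like receptor, was at 5.30 and 5.31 FPKM. ACKR3, a scavenger receptor that also takes up adrenomedullin, was at 0.891 and 0.927 FPKM. CALCRL, which forms the adrenomedullin receptor with RAMP proteins, was below the limit at 0.259 and 0.589 FPKM. FLT1, KDR, FLT4, PDGFRA, PDGFRB, EDNRA and EDNRB were among the 11 with no value. The paper describes the 24812 listed transcripts as those expressed in SQ20B cells. A gene with no value may have been left out there or not paired by symbol, and which of these applied was not analysed here.

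Of the enzymes that act on these factors, 3 of the 8 above the limit were higher and 1 was lower. The shares among all genes were 9.95% and 11.2%. PAM, which amidates the C terminus of adrenomedullin and other peptides, was at 7.81 FPKM in normoxia and 22.5 FPKM in hypoxia, a log2 change of 1.51 beside 1.55 for ADM. ECE1, which cuts the endothelin precursor, was at 3.88 and 7.51 FPKM, a log2 change of 0.93, whereas EDN1 was lower. PLAT was higher, at 21.0 and 43.8 FPKM, and PLAU was lower, at 96.2 and 60.7 FPKM. Both encode plasminogen activators, which release matrix-bound growth factors through plasmin. The other 5 genes of this list, LPL, GPIHBP1, PAPPA, PAPPA2 and ECE2, had no value.

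Of the other endothelial growth factors, 8 of 11 passed the limit, 2 were higher and 1 was lower, beside 9.95% and 11.2% among all genes. ANG, a secreted ribonuclease that promotes vessel growth, went from 1.04 to 4.25 FPKM, a log2 change of 1.93. EFNA1, a membrane-bound ligand of Eph receptors, went from 11.8 to 33.3 FPKM, a log2 change of 1.49. FGF2, the basic fibroblast growth factor, went from 9.50 to 3.70 FPKM, a log2 change of -1.34. The level of VEGFA was 2.24 times that of FGF2 in normoxia and 11.7 times in hypoxia. CXCL8, a chemokine that also acts on endothelium, was at 90.9 and 86.0 FPKM, above all 10 genes.

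Of 14 angiogenesis inhibitors, 9 passed the limit, 2 were higher and none was lower, beside 9.95% and 11.2% among all genes. TIMP3, which inhibits metalloproteinases and blocks VEGFA binding to KDR, was at 35.5 and 66.3 FPKM, a log2 change of 0.90. SEMA3F, a ligand of NRP2, was at 0.467 and 0.852 FPKM and passed the limit only through its hypoxic value, and with a pseudocount of 1 it was 1.26-fold higher and not called. THBS1, a large matrix glycoprotein that blocks endothelial growth, was at 193 and 171 FPKM, the highest level in the inhibitor list. Its level was 9.05 times that of VEGFA in normoxia and 3.95 times in hypoxia. The difference lay mostly in VEGFA, since THBS1 had a log2 change of -0.18.

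**Figure D5:**
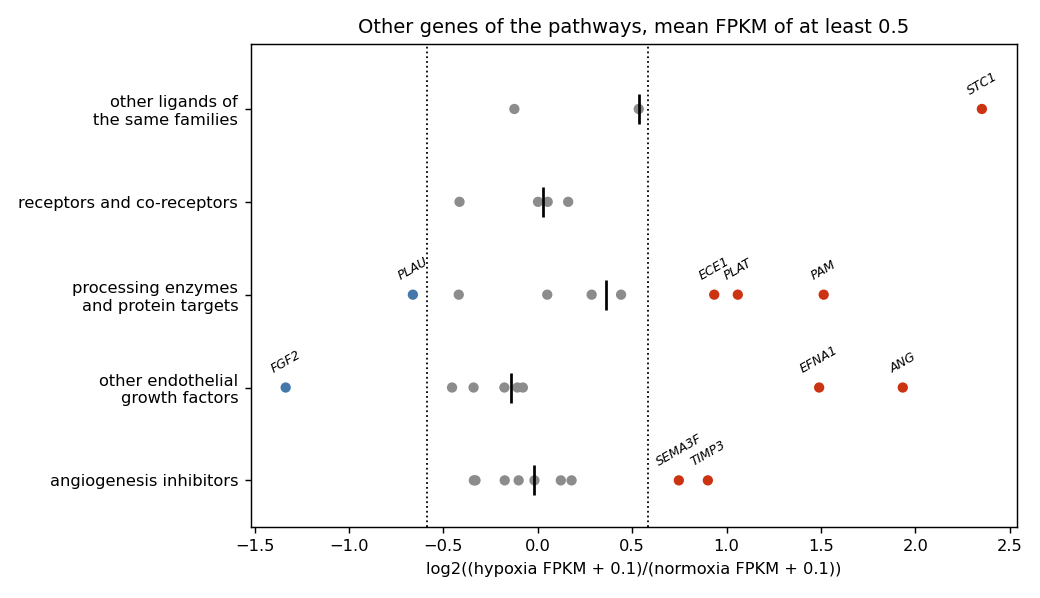
Log2 change from normoxia to hypoxia (x axis) of the 32 other pathway genes above the FPKM limit, by list (y axis). Red points are at least 1.5-fold higher, blue points at least 1.5-fold lower, black bars are list medians and dotted lines mark 1.5-fold. The 4 receptor genes lie inside the dotted lines, and STC1 lies farthest to the right at 2.35.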

How the data were processed

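The deposited table holds FPKM values that the authors computed with the Cufflinks suite (2.1.1) and RefSeq annotation after alignment to hg19 with STAR (2.3.0.1), per the labels. Samples were grouped by their source labels, since the treatment text is the same for both arms. The table gives 1 value for each condition, pooled over 4 replicates. Its other columns hold the authors' own comparison (log2 fold change, test statistic, p-value and q-value) and were not used. Read totals and values of single replicates were not analysed here, so depth was not compared between the arms and the planned limma fit was not run. Accessions were paired with symbols through RefSeq for GRCh38.p14, which named 97.9% of transcripts. Positions are those of the table (hg19), with 1 added to the start, since 5320 of 12882 loci then began at a GENCODE transcript start, against 637 without it. Strand and biotype came from GENCODE lifted to GRCh37.

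FPKM was summed over the transcripts of a gene, 0.1 was added, and log2 ratios were taken for features with a mean FPKM of at least 0.5. The pseudocount lowers the change of weakly expressed genes. The calculation was tested on simulated data with planted changes well past the threshold and little noise. That test does not bear on calls near 1.5-fold or on very low values. Named were all 10 genes, pathway genes called at 1.5-fold and receptors above the FPKM limit. EDN2, CALCRL, ANGPT1, PDGFC, CXCL8 and THBS1 were named after their values were seen. The genes and lists were chosen with earlier results of these data known. Python 3.11.15, numpy 2.4.6, pandas 2.3.3, scipy 1.17.1 and matplotlib 3.10.9 were used.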

Additional observations from a re-analysis of the deposited data

How the results depend on the processing

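The 5 genes called higher (ANGPTL4, ADM, PGF, STC2 and VEGFA) were counted as 5 under 8 of the 9 alternatives and as 6 with columns scaled to equal sums, where PDGFB was added. The number called lower was 1 as reported. It was 2 with no pseudocount, when VEGFB was added, and 0 with a pseudocount of 1, with equal sums, with median centring, with a 2-fold threshold and with the most abundant transcript only. Transcripts called lower numbered 1 in place of 2 with a pseudocount of 1, with equal sums and with a 2-fold threshold. They numbered 3 with no pseudocount. Transcripts called higher numbered 9 as reported, 6 with a pseudocount of 1, 7 with an FPKM limit of 1 or a 2-fold threshold, and 12 with no limit. Pathway genes called higher numbered 8 as reported, 7 with a pseudocount of 1 or a limit of 1, 9 with median centring, 10 with equal sums and 12 with no limit. Pathway genes called lower numbered 1 in place of 2 with equal sums, with quantile normalisation and with a 2-fold threshold, which also left 5 of 8 called higher. With VEGFA transcripts below 0.5 FPKM left out, NM_001287044 held 53.7% in normoxia and 47.0% in hypoxia, and NM_001171628 held 36.3% and 39.0%. Equal sums moved the median log2 change of all genes from -0.07 to 0.15 and the share of called genes that were higher from 46.9% to 78.8%. Genes higher numbered 1204 as reported, 719 with a pseudocount of 1, 2221 with equal sums and 388 past 2-fold, and genes lower numbered 1361, with 599 under equal sums and 317 past 2-fold. The share higher was 58.6% after median centring and 57.8% after quantile normalisation.

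No paired analysis was possible because the table holds 1 pooled value for each condition, and for the same reason leaving out each replicate was not run. The spread between replicates and the counting error behind each FPKM limit these results, most of all for ANGPTL4 and PGF in normoxia.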
